A study of Mus musculus with 36 samples.

Results

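The 10 genes described here encode the proteins that release calcium from the sarcoplasmic reticulum of the heart muscle cell, store it there and pump it back: Ryr2, Casq2, Trdn, Jph2, Hrc, Atp2a2, Pln, Sln, Slc8a1 and Camk2d. They were chosen by symbol, with no measured value in the rule, from the 23352 gene entries that the tables of both genotypes list, and all 10 were found. The heart apex was profiled by RNA sequencing in 36 libraries, 18 from cK15 mice, a knockout of the transcription factor gene Klf15, and 18 from control mice carrying an α-MHC cre transgene, whose promoter is active in cardiomyocytes. Hearts were taken at 6 times of day, 4 h apart, from 12 am through the day to 8 pm, to compare circadian RNA levels between the genotypes, and each of the 12 groups of genotype and time has 3 libraries. All mice were C57BL/6J males of 11 to 12 weeks, housed in 12 h light and 12 h dark. The labels do not say whether the cK15 mice also carried the cre transgene, and they name no animal, so p-values describe the spread of these libraries only, part of which may be technical. Values are FPKM as deposited, that is, fragment numbers divided by the length of the gene and by the size of the library. Differences are cK15 minus control on the log2(FPKM + 1) scale.

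In each heartbeat, calcium entering through the L-type channel of the cell membrane opens the ryanodine receptor Ryr2, and the store in the sarcoplasmic reticulum empties into the cytosol. The pump SERCA2a, encoded by Atp2a2, then returns most of that calcium to the store, held back by phospholamban (Pln) until phospholamban is phosphorylated, while the sodium-calcium exchanger (Slc8a1) moves the rest out of the cell. The force and speed of contraction and relaxation depend on these steps, and mutations of RYR2, CASQ2 and TRDN are known causes of catecholaminergic polymorphic ventricular tachycardia in humans.

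Promoter windows are shown for the genes on which the results turn, since Klf15 belongs to a family that binds CACCC and GC-rich elements. Each sequence is the 250 bases before the transcription start in RefSeq (GRCm38.p6), read 5′ to 3′ on the gene's strand. Capitals mark a CACCC box (CACCC, or GGGTG for the other strand) or a GC box (GGGCGG, or CCGCCC for the other strand). Ryr2 lies on the minus strand and the others on the plus strand.
Ryr2, chr13:12106946-12107195: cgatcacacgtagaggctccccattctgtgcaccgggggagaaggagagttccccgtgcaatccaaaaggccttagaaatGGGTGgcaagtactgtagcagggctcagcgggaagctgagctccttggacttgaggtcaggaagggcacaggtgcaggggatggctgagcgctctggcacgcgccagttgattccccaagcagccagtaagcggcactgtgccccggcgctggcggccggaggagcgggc
Casq2, chr3:102086165-102086414: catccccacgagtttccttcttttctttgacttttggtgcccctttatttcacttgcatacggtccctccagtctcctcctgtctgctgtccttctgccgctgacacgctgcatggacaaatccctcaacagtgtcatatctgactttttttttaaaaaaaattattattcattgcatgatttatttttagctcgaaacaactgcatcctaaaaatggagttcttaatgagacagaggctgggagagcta
Hrc, chr7:45335019-45335268: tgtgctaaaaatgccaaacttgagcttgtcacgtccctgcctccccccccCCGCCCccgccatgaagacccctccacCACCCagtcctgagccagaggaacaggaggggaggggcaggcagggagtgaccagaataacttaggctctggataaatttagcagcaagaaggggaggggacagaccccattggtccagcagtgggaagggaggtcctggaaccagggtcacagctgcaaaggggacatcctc
Pln, chr10:53337436-53337685: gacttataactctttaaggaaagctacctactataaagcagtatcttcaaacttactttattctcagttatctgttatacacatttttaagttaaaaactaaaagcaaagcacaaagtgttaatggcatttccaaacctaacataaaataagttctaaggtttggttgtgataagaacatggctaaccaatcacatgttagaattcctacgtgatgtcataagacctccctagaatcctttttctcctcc
Ryr2 and Hrc each held 1 CACCC box, and Hrc also held 1 GC box, while Casq2 and Pln held neither. A CACCC box occurred in 52% and a GC box in 32.7% of 32851 RefSeq windows of the same length. The clock element CACGTG, an E-box found in 6.02% of windows, was in none of the 7 genes of the 10 that had a window (Ryr2, Casq2, Hrc, Pln, Slc8a1, Camk2d and Jph2). Slc8a1 held 2 CACCC boxes, Camk2d held 3 GC boxes and Jph2 held 1 GC box. The windows of Ryr2 and Hrc were 63.2% and 59.6% G and C, against 41.6% for Casq2 and 32.8% for Pln. A match of letters is a description of the window and not evidence of binding.

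Klf15 was listed at 0 in 13 of 18 cK15 libraries and reached 0.326 FPKM at most, against 0.406 to 2.91 FPKM in control libraries (log2 difference -1.16, SE 0.097; limma adjusted p = 2.14e-10). Libraries summed to 534039 to 691583 FPKM, with 10339 to 10829 genes at 1 FPKM or more, and their read totals are unknown. In 12 libraries, 1 in each of the 12 groups, the 10 most abundant genes held 16.1% to 17.7% of the summed FPKM, against 21.7% to 25.0% in the other 24. These 12, called the libraries that stand apart, were cK15 replicate 1 and control replicate 2 except at 8 pm, where they were cK15 replicate 4 and control replicate 4. Among the other 24 libraries, FPKM of low genes fell on shared steps, at which a median of 23.1% of genes below a mean of 0.5 FPKM had the same ratio between 2 libraries (within 0.004 on the log2 scale), and these steps put relative depth between 0.776 and 1.26 of their median. Between those 24 and the 12 the median was 0.542%, so no common depth scale joined the sets. Between 2 libraries of the 12 the median was 2.47% (1.11% to 6.90%), so the 12 shared few such steps with each other as well. Whether the 12 were quantified as the 24 were was not tested. Each set held as many cK15 as control libraries, and the differences of the 10 genes are also given within each set. In the 12, genotype goes with replicate number except at 8 pm, so a difference by genotype and one by replicate number cannot be told apart there.

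**Figure D1:**
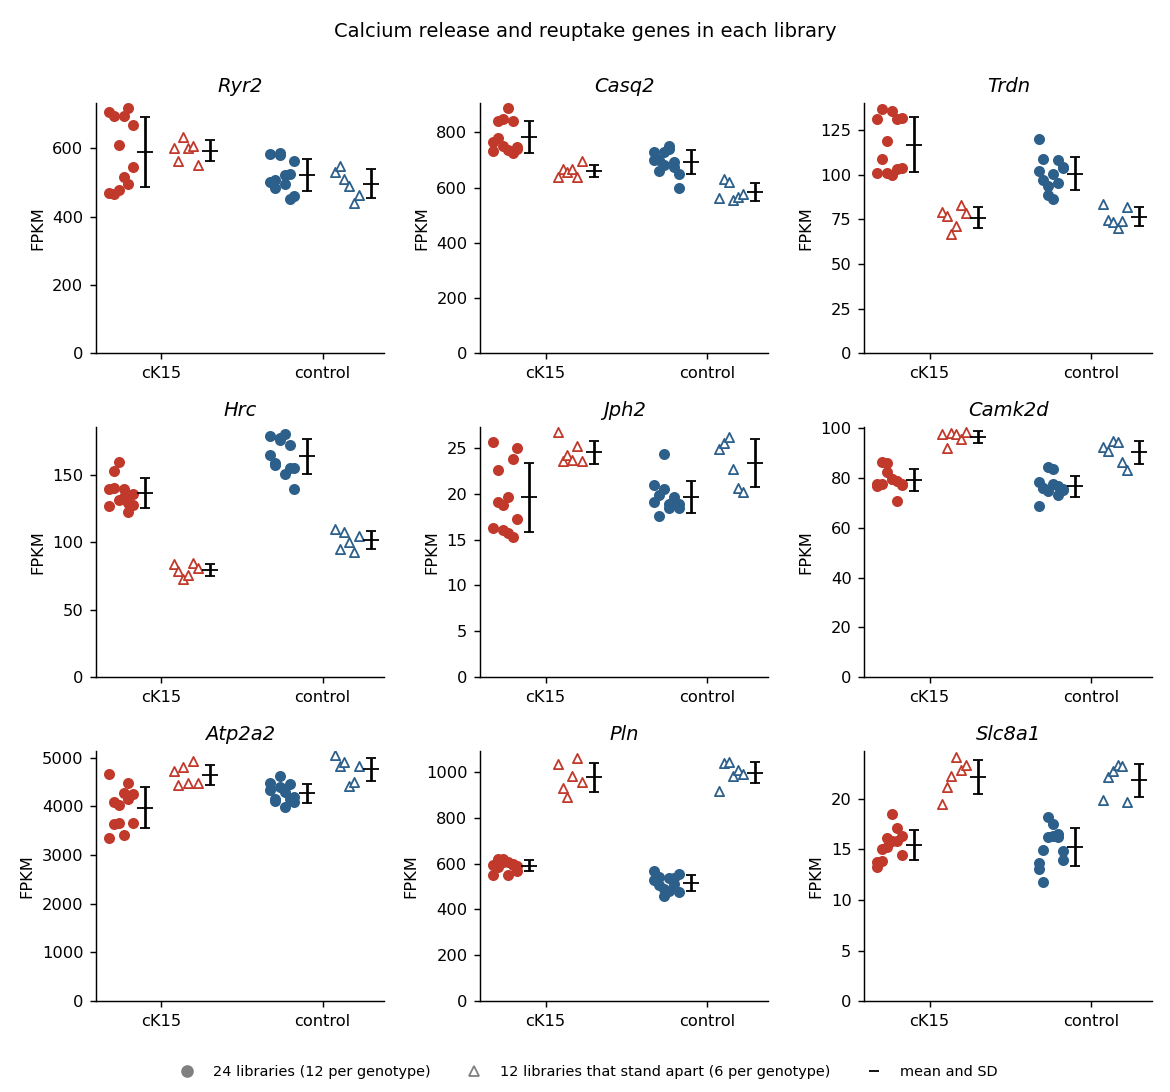
FPKM of 9 calcium cycling genes in each library, cK15 left of control, with filled circles for the 24 libraries, open triangles for the 12 that stand apart, and the mean and SD beside each group. Pln is at 890 to 1061 FPKM in the libraries of cK15 that stand apart against 550 to 621 FPKM in the other cK15 libraries, a wider gap than the one between genotypes.

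The RNA of the release channel and of the main calcium store protein was higher in cK15 hearts (1.14-fold for Ryr2 and 1.13-fold for Casq2) in the fit of 12 group means over 36 libraries, and none of the 10 genes was called lower in that fit. In a fit with replicate number as a block, the averaged difference came from replicates 3 and 4, since replicate 1 was in cK15 only and replicate 2 in control only. In that fit Casq2 passed and Ryr2 did not (limma adjusted p of 0.00872 and 0.0909). With replicate number within genotype as a random series neither passed (limma adjusted p of 0.226 for Casq2 and 0.277 for Ryr2). Ryr2 and Casq2 passed a limma adjusted p of 0.05 in the difference averaged over the 6 times, which is 2 of the 9 genes with values, where 11.2% of the 10601 genes tested passed (4.06% higher and 7.19% lower). The share of all calls that were higher depended on scaling, with 635 higher and 605 lower calls after quantile normalization against 430 higher and 762 lower as deposited. The median difference was 0.042 over the 10 genes and -0.012 over all genes tested.

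Ryr2 (chromosome 13, 11553102 to 12106945, GRCm38) encodes the cardiac ryanodine receptor, the channel through which the store empties. Its level was 465 FPKM at the lowest, 602 at the median and 719 at the highest in cK15 libraries, against 439, 509 and 586 FPKM in control libraries. Of 18 cK15 libraries, 10 lay above every control library and none below them all. The means were 590 ± 84.6 FPKM in cK15 and 514 ± 45.7 FPKM in control hearts (SD, n = 18 each), a log2 difference of 0.19 (SE 0.062, 95% interval 0.064 to 0.32; limma adjusted p = 0.0432). The replicate numbers of cK15 held different levels: replicate 3 was at 465 to 545 FPKM at the 6 times, inside the control range, while replicate 4 was at 611 to 719 FPKM in its 5 libraries outside the set that stands apart. Without cK15 replicate 3 the difference was 0.31 (limma adjusted p = 0.000194) and without cK15 replicate 4 it was 0.10 (limma adjusted p = 0.33). Leaving out any of the other 4 replicate numbers of a genotype also ended the call, at differences of 0.16 to 0.21 (limma adjusted p of 0.094 to 0.203), as did quantile normalization (limma adjusted p = 0.0675) and no filter on low values (limma adjusted p = 0.068).

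Ryr2 differed little between the library sets, with a mean log2 shift of -0.020 in the libraries that stand apart relative to the others of their group. In the 12 libraries that stand apart, all 6 cK15 values (550 to 633 FPKM) lay above all 6 control values (439 to 549 FPKM), which held for 1.07% of genes in that direction, and the difference there was 0.26 (SE 0.052; limma adjusted p = 0.016, where 5.43% of genes passed). In the 24 it was 0.16 (SE 0.090; limma adjusted p = 0.302). Of the 12, 5 cK15 libraries are replicate 1 and 5 control libraries are replicate 2, so genotype and replicate number cannot be told apart there. With replicate number as a block the Ryr2 difference was 0.16. The genes whose level followed Ryr2 most closely over the 36 libraries were Cacna1c, the pore subunit of the L-type channel (Pearson r = 0.862), Dync1h1 (0.86) and Tln2 (0.86), a description that shares library and scaling across genes.

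Casq2 (chromosome 3, 102086415 to 102146514) encodes cardiac calsequestrin, which binds calcium inside the store close to the release channel. It ranged over 638, 739 and 890 FPKM (lowest, median, highest) in cK15 libraries and 554, 667 and 751 FPKM in control libraries. Of the cK15 libraries, 6 lay above every control library, and 7 control libraries lay below every cK15 library. The means were 743 ± 75.7 FPKM in cK15 and 656 ± 64.7 FPKM in control hearts (SD, n = 18 each), a log2 difference of 0.18 (SE 0.054, 95% interval 0.067 to 0.29; limma adjusted p = 0.0295). The difference was 0.18 in the 24 libraries (SE 0.038; limma adjusted p = 0.00474, where 11.1% of genes passed) and 0.18 in the 12 that stand apart (SE 0.040; limma adjusted p = 0.0288). In those 12, all 6 cK15 libraries (638 to 697 FPKM) were above all 6 control libraries (554 to 630 FPKM), as held for 1.07% of genes. Casq2 itself was lower in the library that stands apart in each of the 12 groups, by a mean of 0.24 on the log2 scale, and 8.59% of genes were lower in all 12.

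Single replicate numbers decided the Casq2 call as well. The difference was 0.11 without cK15 replicate 3 (limma adjusted p = 0.261) and 0.11 without control replicate 2 (limma adjusted p = 0.186), and it was 0.25 without cK15 replicate 1 (limma adjusted p = 0.00327). It also missed the threshold without control replicate 3 (0.21, limma adjusted p = 0.0584) and without cK15 replicate 4 (0.17, limma adjusted p = 0.116). Median-ratio scaling gave 0.19 with a limma adjusted p of 0.0531. The sign was positive in all 19 alternative settings for Casq2 and for Ryr2, and the call was kept in 13 for Casq2 and in 7 for Ryr2. Some of these settings leave the difference itself unchanged, so its sign could not turn in them. They are the other filters, the term for the library set, the random series, and limma without trend and robust moderation.

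**Figure D2:**
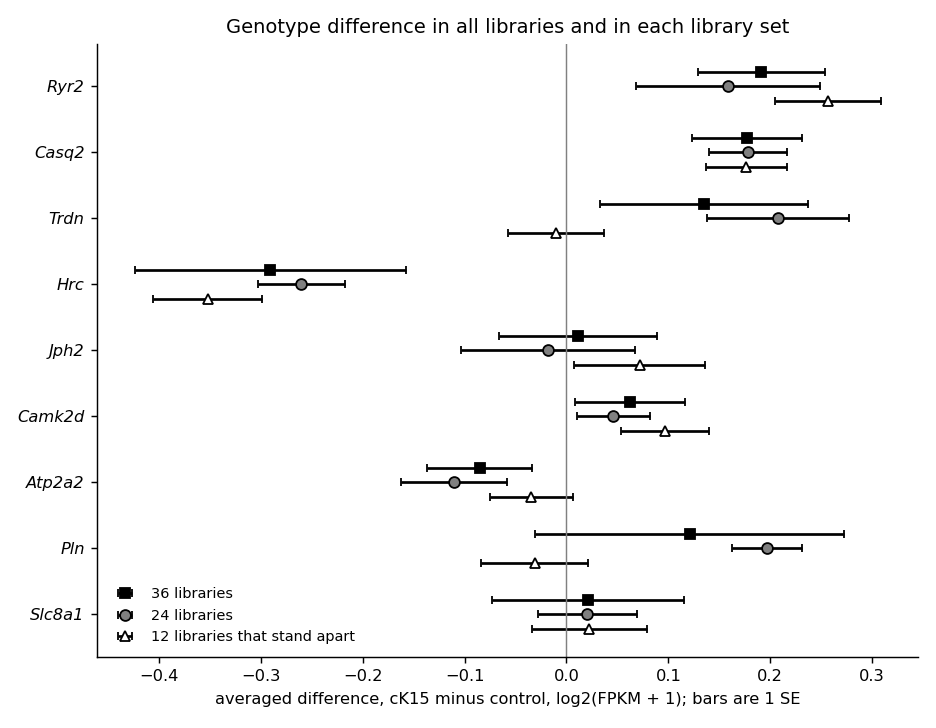
Difference between cK15 and control averaged over the times (log2 of FPKM + 1, bars are 1 SE) for 9 genes, in all 36 libraries, in the 24 and in the 12 that stand apart. Casq2 is at 0.18 in all of them, Hrc is below 0 in all of them, and Pln and Trdn are above 0 in the 24 and near 0 in the 12.

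Triadin (Trdn, chromosome 10, 33080554 to 33476709) anchors calsequestrin to the release channel. Its lowest, median and highest levels were 66.7, 102 and 137 FPKM in cK15 libraries and 70.3, 94.6 and 120 FPKM in control libraries. The ranges overlapped, with 5 cK15 libraries above every control library. The averaged difference was 0.13 (SE 0.10, 95% interval -0.074 to 0.34; limma adjusted p = 0.484). In the 24 libraries it was 0.21 (SE 0.070; limma adjusted p = 0.0658) and in the 12 that stand apart -0.010 (SE 0.047; limma adjusted p = 0.934). The difference between these values was -0.22 (SE 0.099; unadjusted p = 0.0364; limma adjusted p = 0.999), and no gene of the 10601 passed that test (0%), which was chosen after seeing the data. Within cK15, replicate 3 was at 119 to 137 FPKM, above the 99.7 to 109 FPKM of replicate 4 in the 24 libraries, the opposite order to Ryr2. With replicate number as a block the difference was 0.20 (SE 0.066; limma adjusted p = 0.046, where 11.1% of genes passed), and as a random series the limma adjusted p was 0.83. Without cK15 replicate 1 it was 0.30 (limma adjusted p = 0.0306), without cK15 replicate 3 it was -0.053 (limma adjusted p = 0.788) and without control replicate 2 it was 0.033 (limma adjusted p = 0.885), so that leaving out 1 replicate number turned its sign. An antisense gene, D830005E20Rik, overlaps Trdn, and the sources used here do not give the strand setting of the counting.

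Junctophilin 2 (Jph2, chromosome 2, 163336242 to 163397993) ties the store to the transverse tubules of the cell membrane. Its levels were 15.3, 23.1 and 26.7 FPKM (lowest, median, highest) in cK15 libraries and 17.6, 20.01 and 26.2 FPKM in control libraries. They overlapped, and the averaged difference was 0.012 (95% interval -0.15 to 0.17; limma adjusted p = 0.959). Jph2 was higher in the library that stands apart in all 12 groups (mean log2 shift 0.28, as for 17.5% of genes). The difference was -0.018 in the 24 libraries and 0.072 in the 12 (limma adjusted p of 0.924 and 0.6). In cK15 the spread followed replicate number here too, with replicate 3 at 15.3 to 19.1 FPKM and replicate 4 at 18.7 to 25.6 FPKM. Over the 24 libraries Jph2 moved with Ryr2 and against Trdn in these values (Pearson r = 0.709 and -0.583, a description over libraries that share replicate number and scaling).

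The histidine-rich calcium-binding protein (Hrc, chromosome 7, 45335290 to 45338974) sits in the lumen of the store and interacts with triadin and with SERCA2a. It was the gene of the 10 with the largest size of averaged difference, and the direction was down. Its level was 72.7 FPKM at the lowest, 129 at the median and 160 at the highest in cK15 libraries, against 93.0, 155 and 180 FPKM in control libraries. The averaged difference over 36 libraries was -0.29 (SE 0.13, 95% interval -0.56 to -0.018; unadjusted p = 0.0373; limma adjusted p = 0.179). Its levels lay in separate ranges in the library sets, and Hrc was lower in the library that stands apart in all 12 groups (mean log2 shift -0.73), as 8.59% of genes were.

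Within either set, Hrc was lower in cK15. In the 12 libraries that stand apart, it was at 72.7 to 84.6 FPKM in cK15 and 93.0 to 110 FPKM in control, with no overlap, which held for 2.41% of genes in that direction. The difference there was -0.35 (SE 0.054; limma adjusted p = 0.00319). In the 24 libraries it was at 122 to 160 FPKM in cK15 and 140 to 180 FPKM in control, with 9 of 12 cK15 libraries below every control library, and the difference was -0.26 (SE 0.043; limma adjusted p = 0.000474). With a term for the library set over all 36 libraries the difference kept its value with an SE of 0.035 (limma adjusted p = 2.77e-07), in a fit that called 20.5% of all genes. The value over 36 libraries without that term depended on single replicate numbers: it was -0.087 without cK15 replicate 1 (limma adjusted p = 0.691), -0.16 without control replicate 3 (limma adjusted p = 0.621), -0.44 without cK15 replicate 3 (limma adjusted p = 0.0631) and -0.47 without control replicate 2 (limma adjusted p = 0.019). Those of cK15 replicate 1 and control replicate 2 are at 5 times the libraries that stand apart. With replicate number as a block it was -0.27 (limma adjusted p = 0.103), and as a random series the limma adjusted p was 0.583. Hrc was negative in all 19 alternative settings and passed the threshold in 6. Settings that change only the SE or the genes tested could not turn that sign. No annotated gene overlaps Hrc.

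Neither the pump gene Atp2a2 nor its regulator Pln was called in the averaged difference over all libraries. Atp2a2 (chromosome 5, 122453513 to 122502225) was the most abundant of the 10 per length, at 3348, 4268 and 4931 FPKM (lowest, median, highest) in cK15 libraries and 3977, 4410 and 5053 FPKM in control libraries. The lowest 5 cK15 libraries lay below every control library, and the groups otherwise overlapped. The averaged difference was -0.085 (SE 0.051, 95% interval -0.19 to 0.020; limma adjusted p = 0.351), and it passed in none of the 19 alternatives. Atp2a2 was higher in the library that stands apart in all 12 groups (mean log2 shift 0.19), and the difference was -0.11 in the 24 libraries and -0.034 in the 12 (limma adjusted p of 0.192 and 0.706). All 6 libraries of cK15 replicate 3 were at 3348 to 4144 FPKM, against 4034 to 4656 FPKM in replicate 4 among the 24 libraries.

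Phospholamban (Pln, chromosome 10, 53337667 to 53345987) binds SERCA2a and lowers its affinity for calcium. Its levels were 550, 606 and 1061 FPKM (lowest, median, highest) in cK15 libraries and 459, 539 and 1044 FPKM in control libraries. Pln too was higher in the library that stands apart in all 12 groups, by a mean of 0.84 on the log2 scale. The averaged difference over the 36 libraries was 0.12 (SE 0.15, 95% interval -0.19 to 0.43; limma adjusted p = 0.721). In the 24 libraries, cK15 was at 550 to 621 FPKM and control at 459 to 569 FPKM, with 9 of 12 cK15 libraries above every control library, and the difference was 0.20 (SE 0.035; limma adjusted p = 0.000926). In the 12 that stand apart, cK15 was at 890 to 1061 FPKM and control at 915 to 1044 FPKM, and the difference was -0.031 (SE 0.053; limma adjusted p = 0.804).

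The Pln difference was therefore called in 1 set of libraries and not in the other. Over 36 libraries it was called with a term for the library set (SE 0.036; limma adjusted p = 0.0143), and its sign turned without cK15 replicate 1 (-0.061) or control replicate 3 (-0.025). The difference between the sets was -0.23 (12 minus 24; SE 0.064), with an unadjusted p of 0.00127 and a limma adjusted p of 0.999. Pln lies wholly within the span of Cep85l on the opposite strand. Whether exons of the 2 genes overlap was not examined, and reads over shared exons, if any, cannot be told apart if the counting ignored strand. Sarcolipin (Sln, chromosome 9, 53850164 to 53854560), a small inhibitor of the pump that is known from atria and skeletal muscle, was listed at 0 in all 18 cK15 libraries and in 17 of 18 control libraries. The exception was control replicate 4 at 12 pm, with 0.759 FPKM.

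Because a ratio of FPKM within a library is free of library scaling, Pln was also set against Atp2a2. The ratio was 0.170 ± 0.0330 in cK15 and 0.151 ± 0.0446 in control hearts (SD, n = 18 each). In the 24 libraries it was 0.150 ± 0.0174 in cK15 and 0.121 ± 0.00946 in control hearts (SD, n = 12 each), with cK15 values from 0.118 to 0.178 and control values from 0.104 to 0.132. In the 12 that stand apart it was 0.210 ± 0.0128 in cK15 and 0.210 ± 0.0156 in control hearts (SD, n = 6 each). In the 24 the highest control value was below the cK15 mean, while in the 12 the ranges nearly coincided (0.185 to 0.219 in cK15 and 0.181 to 0.224 in control). The ratio of Casq2 to Ryr2 was 1.29 ± 0.286 in cK15 and 1.28 ± 0.135 in control hearts (SD, n = 18 each), and it spread over 1.01 to 1.81 in cK15 and 1.06 to 1.499 in control. The ratio of Slc8a1 to Atp2a2 was 0.00422 ± 0.000696 in cK15 and 0.00392 ± 0.000678 in control hearts (SD, n = 18 each), less than 1 SD apart. FPKM ratios compare RNA and not protein.

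**Figure D3:**
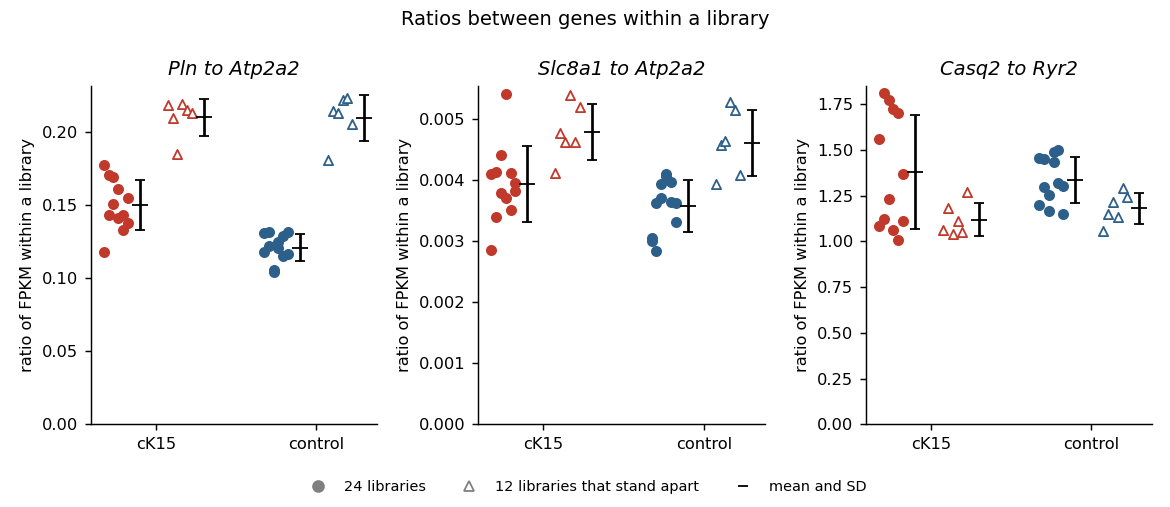
Ratios of FPKM within a library for Pln to Atp2a2, Slc8a1 to Atp2a2 and Casq2 to Ryr2, cK15 left of control, filled circles for the 24 libraries and open triangles for the 12 that stand apart, with mean and SD. The Pln to Atp2a2 ratio averages 0.150 in cK15 and 0.121 in control among the 24 libraries, and 0.210 in both genotypes among the 12.

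Calcium leaves the cell mainly through the sodium-calcium exchanger Slc8a1 (chromosome 17, 81373105 to 81738377). It was at 13.3, 16.2 and 24.1 FPKM (lowest, median, highest) in cK15 libraries and at 11.7, 16.4 and 23.3 FPKM in control libraries. These ranges nearly coincided, and the averaged difference was 0.021 (95% interval -0.17 to 0.21; limma adjusted p = 0.939). It was 0.020 in the 24 libraries and 0.022 in the 12 that stand apart, where Slc8a1 was higher in all 12 groups (mean log2 shift 0.50). Camk2d (chromosome 3, 126596302 to 126846326), the main cardiac isoform of the calcium/calmodulin kinase that phosphorylates Ryr2 and phospholamban, was at 70.8, 81.0 and 98.6 FPKM in cK15 libraries and 68.9, 77.8 and 94.6 FPKM in control libraries. Its difference was 0.063 (95% interval -0.048 to 0.17; limma adjusted p = 0.553), with 0.046 in the 24 libraries and 0.097 in the 12 that stand apart (limma adjusted p of 0.478 and 0.239). Camk2d was higher in the library that stands apart in all 12 groups (mean log2 shift 0.26).

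At single times of day none of the 9 genes with values passed the threshold, where 1.22% (12 am), 1.13% (4 am), 1.07% (8 am), 0.755% (12 pm), 1.31% (4 pm) and 1.13% (8 pm) of all genes did. At 4 pm 1 of the 9 had an unadjusted p under 0.05 (Ryr2), and at the other times none did. The signs held over the day for most of them: Ryr2, Casq2, Trdn, Pln and Camk2d were higher in cK15 at 6 of 6 times and Hrc was lower at 6 of 6, in comparisons that share libraries with the averaged difference. Ryr2 ran from 0.029 at 8 am to 0.35 at 4 pm (unadjusted p = 0.0282; limma adjusted p = 0.45). At 4 pm its values were 496, 608 and 719 FPKM in cK15 and 439, 451 and 526 FPKM in control. Casq2 was the one gene of the 9 without overlap at any time, at 8 pm, with 697, 742 and 746 FPKM in cK15 and 578, 600 and 649 FPKM in control (difference 0.26; limma adjusted p = 0.694). At that time 4.74% of all genes had 3 cK15 libraries above 3 control libraries.

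With a term for the library set, 3 differences at single times passed. Casq2 at 8 pm was 0.26 (SE 0.072; limma adjusted p = 0.0491, where 2.59% of genes passed). Hrc was -0.37 at 12 am (SE 0.087; limma adjusted p = 0.0136, 2.41%) and -0.38 at 8 am (SE 0.087; limma adjusted p = 0.0126, 2.06%). At 8 am the Hrc values were 72.7, 131 and 160 FPKM in cK15 and 108, 176 and 177 FPKM in control, each low value being the library that stands apart. In the 24 libraries alone, Pln at 8 am was the single difference called (0.37, SE 0.085; limma adjusted p = 0.035, where 1.26% of genes passed). No gene of the 10 differed between genotypes in its course over the times (genotype by time, limma), where 1 gene in all passed (0.00943%).

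A 24 h rhythm was not called for any of the 9 genes in either genotype, and none had an unadjusted p under 0.05. By the same limma test, 1.08% of all genes were rhythmic in cK15 and 2.8% in control. The test of a difference in rhythm called none of the 10601 genes (0%). Slc8a1 had the largest fitted amplitude of the 9 in either genotype, 0.14 in cK15 (SE 0.083, peak at hour 13.2; limma adjusted p = 0.918) and 0.17 in control (SE 0.084, peak at hour 11.9; limma adjusted p = 0.593). Its values at 12 am were 13.3, 13.7 and 19.4 FPKM in cK15 and 13.0, 13.6 and 19.9 FPKM in control. At 12 pm they were 15.8, 18.4 and 24.1 FPKM in cK15 and 16.3, 17.5 and 23.3 FPKM in control. Each library at 12 pm was above the one of its rank at 12 am in both genotypes, and the third of each trio is the library that stands apart.

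With a term for the library set, the Slc8a1 rhythm had an SE of 0.033 in cK15 (limma adjusted p = 0.0744, where 2.46% of genes passed) and of 0.036 in control (limma adjusted p = 0.0162, where 6.89% passed). Trdn had a fitted amplitude of 0.054 in cK15 (limma adjusted p = 0.859 with that term) and of 0.12 in control, with a peak near hour 22.5 (limma adjusted p = 0.0336 with that term and 0.66 without). A call in control and none in cK15 is not a difference between them, and with the term the test of that difference gave a limma adjusted p of 0.993 for Trdn, where 0.00943% of genes passed. In the 24 libraries alone neither gene was called in either genotype, where 0.717% of all genes were called in cK15 and 2.26% in control. Labels of 12 am were read as midnight: under that reading the 24 h curve took up 94.1% of the variance of the clock gene Per2 and 82.3% of Nr1d1 in control, against 60.1% and 11.4% with 12 am as noon. Arntl (94.9% against 93.1%) and Dbp (94% against 88.5%) separated the readings less.

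**Figure D4:**
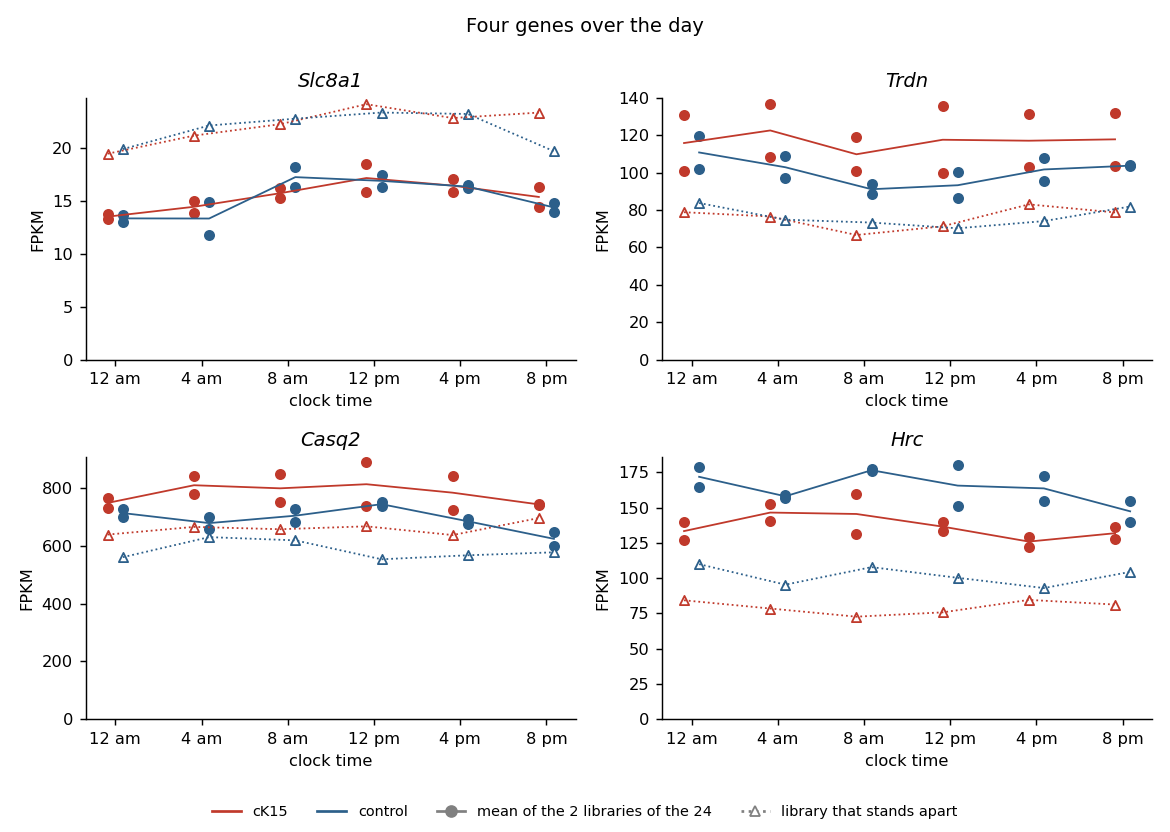
FPKM of Slc8a1, Trdn, Casq2 and Hrc by clock time in cK15 (red) and control (blue). Filled circles and solid lines give the libraries of the 24 and their mean, open triangles and dotted lines the library that stands apart, and Hrc in cK15 lies below control in both kinds of library at every time by the mean.

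Other genes of calcium handling were taken from lists, with values over all 36 libraries. Of 20 other genes of the sarcoplasmic reticulum, 13 were tested, 2 were higher and 1 was lower (median difference -0.069). Asph, whose locus encodes junctin, the partner of triadin at the release channel, was at 154 ± 15.2 FPKM in cK15 and 134 ± 8.36 FPKM in control hearts (SD, n = 18 each; difference 0.20, SE 0.038; limma adjusted p = 0.000371). Calu, a calcium-binding protein of the lumen, was higher by 0.16 (limma adjusted p = 0.00441). Itpr2, the inositol trisphosphate receptor type of heart muscle cells, was lower by a difference of -0.25 (limma adjusted p = 0.00335). The isoforms of skeletal muscle were low, with Ryr1 at 0.0440 FPKM in cK15 and 0.0729 FPKM in control, and Atp2a1 at 0.918 FPKM in cK15 and 0.922 FPKM in control.

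Among 26 modulators of release and reuptake, 24 were tested, 3 were higher and 2 were lower (median 0.043). The higher ones were Calm3, a calmodulin gene (0.21; limma adjusted p = 0.000523), Prkar2a, a regulatory subunit of protein kinase A (0.19; limma adjusted p = 0.00059), and Camk2g (0.17; limma adjusted p = 0.00572). Ppp1r1a, which encodes inhibitor 1 of protein phosphatase 1, was at 0.920 ± 0.507 FPKM in cK15 and 2.005 ± 0.684 FPKM in control hearts (SD, n = 18 each; difference -0.66, SE 0.13; limma adjusted p = 0.00084). Hspb6, a small heat shock protein that also acts on that phosphatase, differed by -0.30 (limma adjusted p = 0.0492). Calm2 and Ppp1r3a were rhythmic in control (amplitudes 0.18 and 0.38; limma adjusted p = 0.047 and 0.0166), where 2.8% of all genes were. No modulator was called rhythmic in cK15, where 1.08% of all genes were. There Calm2 and Ppp1r3a had amplitudes of 0.16 and 0.24 (limma adjusted p of 0.515 and 0.305). The test of a difference in rhythm called neither gene, so a loss of rhythm was not shown.

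Of 15 genes of calcium entry and extrusion at the cell membrane, 11 were tested, 2 were higher and none was lower (median 0.014). Cacna1c was at 82.6 ± 14.3 FPKM in cK15 and 67.5 ± 8.58 FPKM in control hearts (SD, n = 18 each; difference 0.28, SE 0.079; limma adjusted p = 0.0197). Its difference was 0.28 in the 24 libraries (limma adjusted p = 0.0994) and 0.28 in the 12 that stand apart (limma adjusted p = 0.0162), and it missed the threshold with replicate number as a random series (limma adjusted p = 0.107). Cav3, the muscle caveolin, was at 9.74 ± 2.03 FPKM in cK15 and 7.55 ± 1.83 FPKM in control hearts (SD, n = 18 each; difference 0.34, SE 0.099; limma adjusted p = 0.0202). Of 11 tested genes of mitochondrial calcium uptake and release, Vdac1 of the outer membrane was higher (0.11; limma adjusted p = 0.0448) and none was lower (median 0.020). With replicate number as a random series, the calls that held among these named genes were Asph, Calm3 and Prkar2a (limma adjusted p of 0.0165, 0.0302 and 0.0358). In the 12 libraries that stand apart, those that passed were Calm3, Ppp1r1a and Cacna1c. Cav3 and Hspb6 missed the threshold with replicate number as a block (limma adjusted p of 0.0549 and 0.0698).

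Among markers of cell types, most of the fibroblast and macrophage lists were called lower over 36 libraries, and some cardiomyocyte and atrial markers were also called. Of all genes tested, 4.06% were called higher and 7.19% lower in that fit. All 10 cardiomyocyte markers were detected, summing to 61826 to 125431 FPKM in cK15 libraries and 62899 to 113178 FPKM in control libraries. Of them 3 were higher in cK15, Mybpc3 (0.24), Actc1 (0.15) and Ckm (0.22), with limma adjusted p of 0.00196, 0.0177 and 0.0498. In the 12 libraries that stand apart the sums lay at 61826 to 72878 FPKM in cK15 and 62899 to 67926 FPKM in control. In the 24 they lay at 100582 to 125431 FPKM in cK15 and 91752 to 113178 FPKM in control. Called higher were 4 of 10 in the 24 and 1 of 10 in the 12, where 4.42% and 1.9% of all genes were. Fibroblast markers summed to 1317 to 1610 FPKM in cK15 and 1565 to 1929 FPKM in control, with 6 of 7 tested lower (7 of 7 in the 24 libraries and 3 of 7 in the 12 that stand apart). Macrophage markers summed to 147 to 233 FPKM in cK15 and 167 to 255 FPKM in control, with 6 of 8 lower (5 of 8 in the 24 and 0 of 8 in the 12). Of all genes tested, 6.67% were called lower in the 24 and 3.54% in the 12. Endothelial markers gave 0 of 7 called, and 1 of 6 markers of smooth muscle and pericytes, Acta2, was lower. With replicate number as a random series, 3 of 7 fibroblast markers were called lower. In that fit no marker of the cardiomyocyte, macrophage, or smooth muscle and pericyte lists was called. The part of these cell types in the Ryr2, Casq2 and Hrc results was not tested, and in whole tissue fewer cells of a type and less RNA per cell cannot be told apart.

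Of 6 tested atrial markers, 1 was higher, Pam (0.17; limma adjusted p = 0.00299). The 2 lower ones were Myl7 (-0.77; limma adjusted p = 0.0403) and Stard10 (-0.23; limma adjusted p = 0.0325). Sums of the list were 536 to 956 FPKM in cK15 and 426 to 679 FPKM in control. Pam held most of these sums, with means of 460 and 409 FPKM, while Myl7 averaged 3.37 and 7.37 FPKM. With replicate number as a random series none of the 6 was called. Conduction tissue markers summed to 0.922 to 2.84 FPKM in cK15 and 1.15 to 3.33 FPKM in control, with Isl1 at 0 in all libraries, and none was abundant enough to be tested. Skeletal muscle markers gave 0 of 4 called.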

How the data were processed

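The authors deposited FPKM for each gene symbol and library, in a table for each genotype. The tools named in the submitters' processing notes are GSNAP and HTSeq, with the genome mm10. The sources used here give no versions, annotation or read totals. Per the labels' protocols, 1 ug of apex RNA was depleted of ribosomal RNA (Ribo-Zero), made into TruSeq stranded total RNA libraries and sequenced as 100 bp pairs in pools of 3. Since FPKM is relative to the library total, highly abundant genes can depress the values of the rest. Log2 fold changes with a pseudocount understate changes of low genes.

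The log2(FPKM + 1) values were tested in limma 3.58.1 (R 4.3.3), with moderation that follows mean level and is robust to outlying genes. The 10601 genes tested had a mean of at least 1 FPKM, or were Sln or Klf15. Of the 10 genes, 9 passed that filter. Calls have a Benjamini-Hochberg adjusted p under 0.05 over all genes tested. The genotype difference used 12 group means. Rhythm was tested within each genotype by fitting a curve of 24 h period (a sine and a cosine term), and the genotype terms of that curve tested the rhythm difference. The script was tested on simulated data.

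The genes, the lists of other calcium genes and markers, and the cut of 19% for the share of the 10 most abundant genes that defines the libraries that stand apart were chosen with earlier results of these data known. Most genes outside the 10 were named by rule: up to 4 called in the averaged difference and up to 3 rhythmic per list, and the 3 of highest correlation with Ryr2. Among those named beyond that rule were Hspb6, a further call of its list, and the skeletal muscle isoforms Ryr1 and Atp2a1, which were not tested. Replicate numbers 3 and 4 are shared by the genotypes. In the 12 pairs of same-numbered libraries, deviations from the group means correlated at 0.157 to 0.508, all above 0.1. The numbers were taken as pairing on that ground and not from a statement in the labels. Deviations from a mean of 3 libraries also hold the shift between library sets, which same-numbered libraries share. Libraries of unlike number were not compared, so these correlations cannot tell pairing from that shift. Alternatives were another pseudocount (0.1), no filter or a mean of at least 5 FPKM, median-ratio and quantile scaling, leaving out each replicate number, replicate number as a block or random series, the library set as a term or left out, and limma without trend and robust moderation. Gene positions are from GENCODE vM21 (GRCm38).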

Additional observations from a re-analysis of the deposited data

How the results depend on the processing

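Over all 36 libraries 2 of the 9 genes were called in the averaged difference. The number was 1 without a filter (Casq2), 1 with median-ratio scaling (Ryr2), 1 with quantile normalization (Casq2) and 1 with limma without trend and robust moderation (Casq2). It was 4 with a term for the library set, and 4 (24 libraries) and 6 (library term) with median-ratio scaling, both of these chosen after seeing the data. In the 24 libraries 2 were called higher and 1 lower, and the same numbers in the 12 that stand apart. Of all genes, 11.1% were called in the 24, 5.43% in the 12 and 20.5% with the library term. With median-ratio scaling the shares were 11.3% over 36 libraries, 11.7% in the 24 and 21.2% with the library term. Quantile normalization gave 11.7%. Leaving out each replicate number gave 0 to 2 of the 9 genes. With replicate number as a block it was 2 (Casq2 and Trdn, with limma adjusted p of 0.00872 and 0.046). That block assumes a pairing that the data could not establish, and its averaged difference rests on replicates 3 and 4. With replicate number as a random series within genotype it was 0, where 348 of 10601 genes were called in place of 1192. With the library term all genes called were 2169, and without control replicate 3 they were 763. At single times 0 became 3 with the library term, 1 in the 24 libraries, and 1 and 3 with median-ratio scaling added to these. By time, 1.43% to 3% of all genes passed with the library term and 0.717% to 1.26% in the 24. Rhythmic genes of the 9 in control went to 2 with the library term (6.89% of all genes) and 1 with median-ratio scaling added, and in cK15 to 1 with both. For single times and rhythm, shares of all genes with that scaling added are not given here. The cause of these shifts was not tested. Ryr2, Casq2 and Hrc kept their sign in all 19 alternatives, while Pln was negative in 3 and Trdn in 2. In the alternatives that change only the SE or the genes tested, no sign could turn. The 12 libraries that stand apart hold 1 library per group, so no single time and no genotype by time was tested in them alone. Read totals being unknown, no counting interval or floor is given, and relative depth is known only among the 24.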
